A study of Canis lupus familiaris with 33 samples.

Results

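Interferon-stimulated genes were described in canine diffuse large B-cell lymphoma (DLBCL), which arises from mature B cells, and in healthy lymph nodes. The 48 listed genes were chosen by symbol, and every probeset with a single gene symbol on the list was taken. Of these genes, 40 were measured, by 78 of the 43035 probesets of the Affymetrix Canine Genome 2.0 array, and they are 40 of the 15115 genes that the array annotation names. The other 8, IFIT1, IFIT3, OASL, DDX58, CXCL9, BST2, SAMD9 and SP110, had no probeset of that single symbol and are not analysed here. The probeset with the highest mean over the 33 arrays stands for its gene.

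The biopsies fell into 3 groups. Relapsed DLBCL came from 7 pet dogs aged 6.4 to 11.8 years that had been given chemotherapy before. Their labelled protocols named CHOP in 4 dogs and others in 3, and 13 to 672 days, with a median of 82, had passed since the last treatment. Their medication was tramadol in 1 dog, DLBCL 3, and none in 6. Treatment naïve DLBCL came from 16 pet dogs aged 2.7 to 13.3 years without previous chemotherapy, and their medication was rimadyl in DLBCL 8 and 16, doxycycline in DLBCL 14, none in 6 dogs and not given for 7. Healthy nodes gave 10 arrays from dogs euthanised for conditions other than lymphoma, whose ages are not given. The DLBCL dogs were of 14 breeds or crosses. Case numbers in the labels show that 4 healthy arrays came from a single animal, called healthy dog 1, and that DLBCL 12 (relapsed) and DLBCL 11 (naïve) came from the same dog. There were thus 22 DLBCL dogs and 7 healthy ones, and a dog's arrays were averaged before DLBCL was compared with healthy nodes.

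Interferons are secreted by cells that sense foreign nucleic acid. Type I interferons bind a receptor whose JAK kinases activate STAT2, which joins IRF9 in a complex that enters the nucleus and switches on the interferon-stimulated genes. The products sense viral RNA, degrade it, block its translation or attach the small protein ISG15 to other proteins, and some of them damp the signal. Interferon gamma is made by T and NK cells, and IRF1, GBP1 and CXCL9 are among the genes that respond strongly to it.

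Values are log2 expression values normalised by RMA, a method that gives all arrays the same distribution of probe values. Array medians were 6.85 to 6.97. Background was gauged from 17 tag controls without a target in the dog, whose means reached from 2.79 to 4.56, and RSAD2 with a mean of 4.21 was the 1 measured gene of the list below the highest of them. RNA integrity (RIN) was 9.64 ± 0.29 in the DLBCL dogs and 7.11 ± 1.12 in the healthy dogs (SD, n = 22 and 7; exact permutation test of the dogs, two-sided, p = 1.9e-06). Disease and RNA integrity therefore cannot be told apart in these samples. Averaged over their markers, T-cell genes lay at 7.84 to 10.71 in the DLBCL dogs and at 11.07 to 12.02 in the healthy dogs, and 7 of 9 were lower in DLBCL. B-cell markers averaged 10.84 ± 0.66 in the DLBCL dogs and 10.27 ± 0.27 in the healthy dogs, with 2 of 7 higher in DLBCL. Macrophage markers averaged 10.29 ± 0.75 in the DLBCL dogs and 10.82 ± 0.80 in the healthy dogs, with 3 of 11 lower in DLBCL. DLBCL 5, a naïve tumour, stood apart with B-cell markers at 8.02 against 10.44 to 11.30 in the other 22 tumours, and with the highest macrophage and neutrophil markers of all tumours.

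Interferon-stimulated genes were higher far more often than lower in DLBCL against healthy nodes. Of the 40 genes, 21 were higher and 2 were lower at an adjusted p under 0.05 (limma, Benjamini-Hochberg over all probesets), where 19.9% of all genes were higher and 14.9% were lower. The differences were positive in 35 of the 40 genes, and their median was 0.66 on the log2 scale, while that of all genes was 0.06. Over 2-fold higher were 15 genes of the list, against 1.93% of all genes, and over 2-fold lower was 1, GBP1, against 4.8%. CMPK2, USP18, RTP4, HERC5 and ISG15 had the largest differences, with log2 differences of 1.83 to 2.13. IRF1 and GBP1 were lower. In bulk biopsies, fewer cells of a type and less RNA per cell cannot be told apart. With RIN as a covariate 0 of the 40 genes passed in either direction, with a smallest adjusted p of 0.121 and 2 genes under an unadjusted p of 0.05. The differences of that fit had a median of 0.63, with 34 positive. Of the 23 genes that passed without RIN, 6 had a difference over 1.5 times smaller with it, of 0.92 for HERC5, 0.79 for HERC6, 0.67 for IRF7, 0.57 for OAS2, 0.34 for DDX60 and -0.50 for GBP1. Over the whole table that fit called 249 probesets higher and 500 lower, in place of 8178 and 5840.

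**Figure D1:**
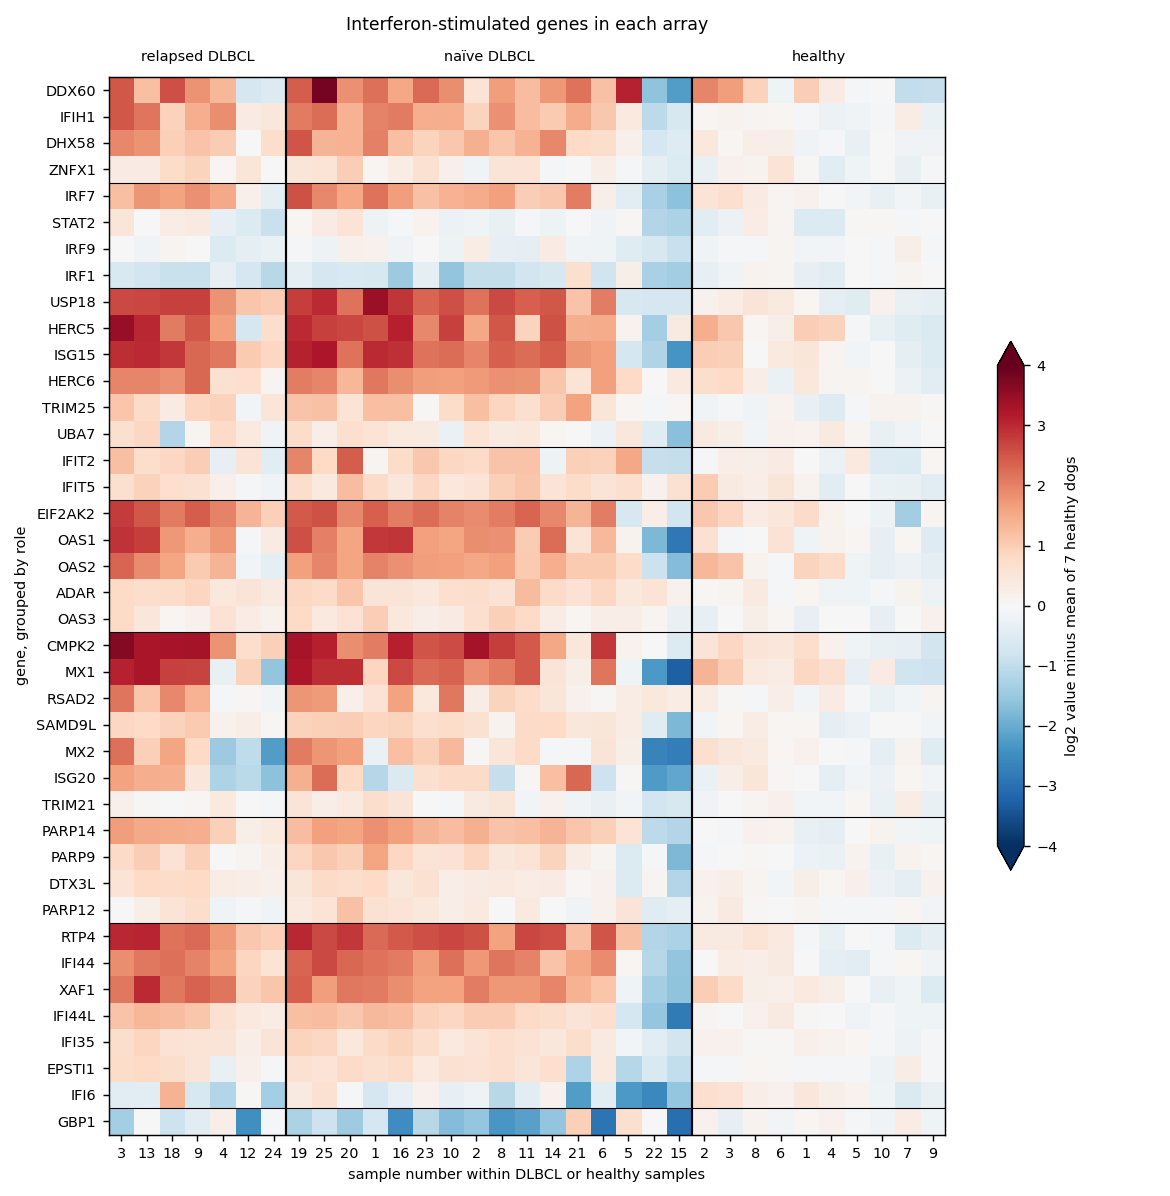
Each row is 1 of the 40 measured genes and each column 1 of the 33 arrays, grouped as relapsed DLBCL, naïve DLBCL and healthy; colour gives the log2 value minus the mean of the 7 healthy dogs. DLBCL 15 and DLBCL 22 are lower than the healthy mean in most rows, while most other tumours are higher. The difference between DLBCL and healthy dogs is positive in 35 of the 40 rows, and IRF1, GBP1, IFI6, IRF9 and STAT2 are the other 5.

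ISG15 and the enzymes that attach and remove it had the largest median difference of the roles examined. Of 6 such genes 5 were higher in DLBCL, with a median log2 difference of 1.61. ISG15 itself, a ubiquitin-like protein, had values of 10.69 to 12.83 with a median of 12.14 in relapsed tumours and of 7.48 to 13.09 with a median of 12.05 in naïve tumours, against 9.30 to 10.50 with a median of 9.83 in healthy dogs. Of the 22 DLBCL dogs 19 were above every healthy dog and 3 were below every healthy dog, so that the groups parted on both sides. The log2 difference was 1.83 (SE 0.55, adjusted p = 0.0104), a 3.56-fold higher level.

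USP18, which removes ISG15 from proteins and also damps the type I receptor, had the same shape. It ranged from 9.49 to 11.24 (median 11.14) in relapsed tumours and from 7.82 to 11.91 (median 10.86) in naïve tumours, while healthy dogs had 8.02 to 9.01 (median 8.54). Again 19 DLBCL dogs lay above all healthy dogs and 3 below, with a log2 difference of 1.95 (SE 0.45, adjusted p = 0.00121). HERC5, the main ligase for ISG15 in human cells, ranged from 8.34 to 12.49 (median 11.09) in relapsed and from 7.65 to 12.10 (median 11.20) in naïve tumours, against 8.44 to 10.11 (median 8.95) in healthy dogs. It was 3.61-fold higher in DLBCL (log2 difference 1.85, SE 0.46, adjusted p = 0.00249), and 17 DLBCL dogs lay above every healthy dog. HERC6, its neighbour on the chromosome and the ISG15 ligase of the mouse, ranged from 10.26 to 12.45 (median 11.99) in relapsed and from 10.17 to 12.27 (median 11.82) in naïve tumours, against 9.75 to 10.66 (median 10.18) in healthy dogs. No DLBCL dog was below the lowest healthy dog for HERC6, and the difference was 1.39 (SE 0.26, adjusted p = 0.000149). TRIM25, a ubiquitin ligase of RNA sensing, was higher by 0.73 (SE 0.18, adjusted p = 0.00201).

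UBA7, which activates ISG15 for conjugation, was the exception in its group. It had values of 10.54 to 12.53 (median 12.09) in relapsed tumours and 10.02 to 12.43 (median 12.06) in naïve tumours, against 11.41 to 11.98 (median 11.71) in healthy dogs. The healthy range lay inside that of the tumours, and the log2 difference was 0.15 with a 95% interval of -0.34 to 0.63.

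**Figure D2:**
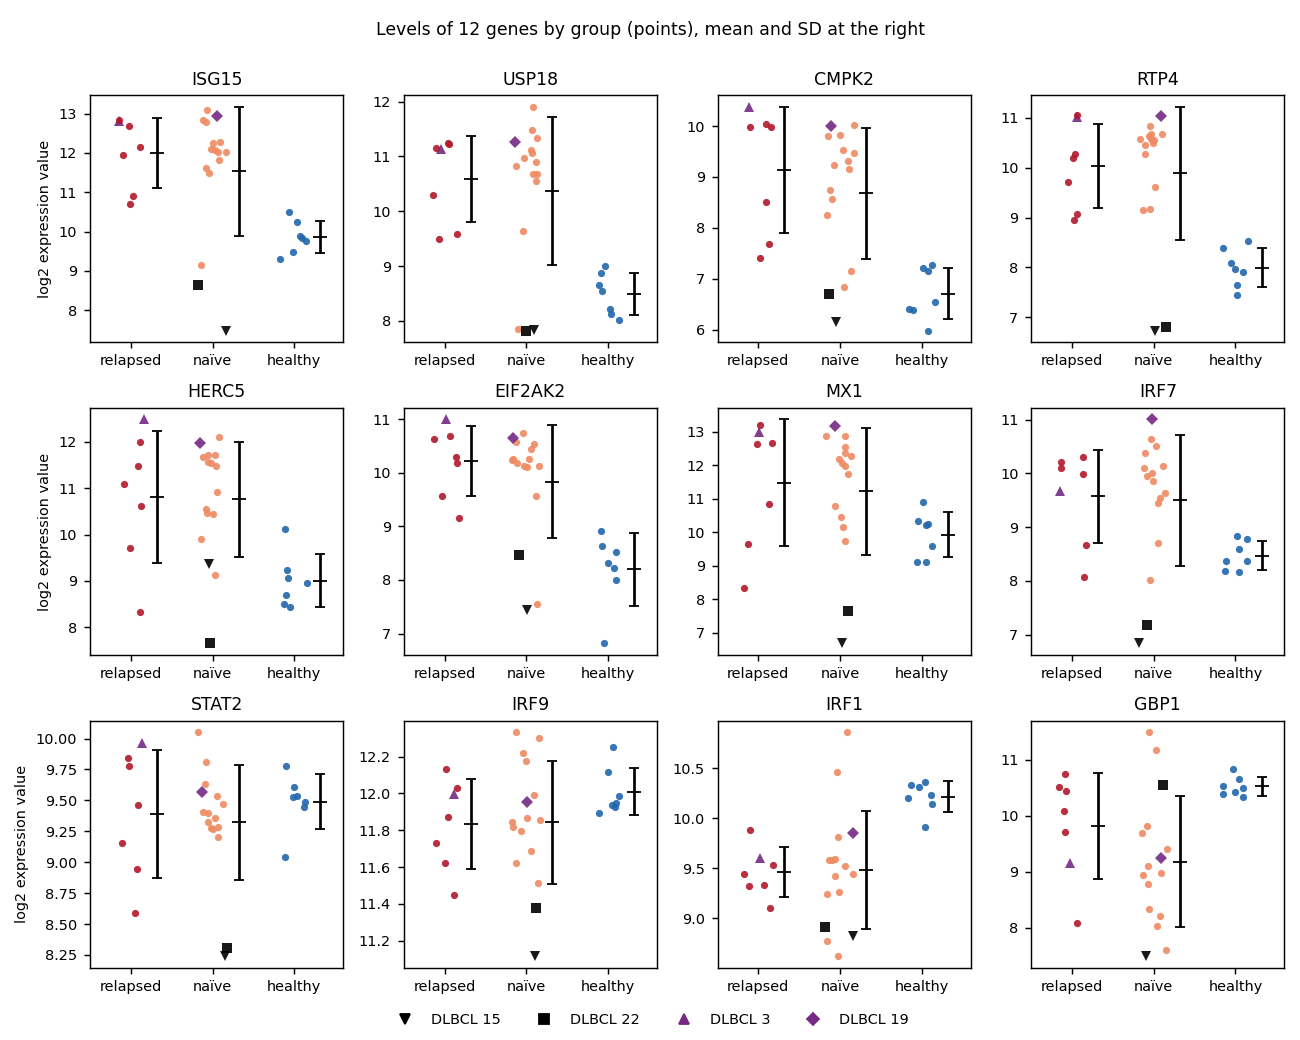
Log2 values of 12 genes in relapsed tumours, naïve tumours and healthy dogs; each point is a tumour array or a healthy dog, and the bar gives the mean and SD of the group. Most tumours lie above the healthy dogs for ISG15, USP18, CMPK2 and RTP4, below them for IRF1 and GBP1, and on both sides of them for STAT2. For IRF9, 13 DLBCL dogs lie below all healthy dogs.

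The cytosolic sensors of viral RNA were higher in 3 of the 4 measured cases, with a median log2 difference of 1.17. IFIH1 (MDA5) was higher by 1.27 (SE 0.33, adjusted p = 0.00374), and 20 of 22 DLBCL dogs were above all healthy dogs. DHX58 (LGP2), a relative without signalling domains, was higher by 1.07 (SE 0.28, adjusted p = 0.00434) with 19 dogs above. DDX60, a helicase that assists these sensors, varied widely within both groups. It ranged from 6.32 to 9.55 (median 8.30) in relapsed and from 4.76 to 10.82 (median 8.77) in naïve tumours, against 6.00 to 8.22 (median 6.95) in healthy dogs. Its difference of 1.44 (SE 0.55, adjusted p = 0.0446) did not pass without DLBCL 3, without DLBCL 5 or without DLBCL 19 (adjusted p of 0.0561, 0.0532 and 0.0567), nor without 5 of the healthy dogs in turn. It also missed the threshold with the dog as a random block (adjusted p = 0.0564) and with the 33 arrays as separate samples (1.02, adjusted p = 0.0895). ZNFX1, a helicase found at mitochondria, had a difference of 0.26 (adjusted p = 0.21), although the dimmest of its 4 probesets passed with 0.51 (adjusted p = 0.0117).

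Enzymes that act on duplex RNA were higher in 4 of 5 cases. EIF2AK2 (PKR), the kinase that halts translation, ranged from 9.15 to 10.996 (median 10.29) in relapsed and from 7.44 to 10.74 (median 10.21) in naïve tumours, against 6.81 to 8.92 (median 8.32) in healthy dogs. It was 3.34-fold higher (log2 difference 1.74, SE 0.38, adjusted p = 0.000718), with 19 DLBCL dogs above every healthy dog and 0 below. ADAR, which edits adenosine in such RNA, had the smallest p of the list, with a difference of 0.64 (SE 0.09, adjusted p = 4.7e-06) and 20 dogs above. Its size was modest and its SD over the DLBCL dogs, 0.21, was near that over the healthy dogs, 0.20.

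The OAS enzymes make the short oligoadenylates that activate RNase L. OAS2 was higher by 1.16 (SE 0.38, adjusted p = 0.0187) and OAS3 by 0.41 (SE 0.13, adjusted p = 0.0131). OAS1 had a difference of 1.35 that missed the threshold at its brightest probeset (SE 0.54, adjusted p = 0.0528), while 3 of its 4 dimmer probesets passed with differences of 1.46 to 2.11. It also passed with the dog as a random block (1.33, adjusted p = 0.0387) and without DLBCL 15 (1.55, adjusted p = 0.00545). DLBCL 15 was the lowest tumour for OAS1, so leaving it out could only raise the difference.

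Of 7 other antiviral effectors 2 were higher. CMPK2, a mitochondrial nucleotide kinase, had the largest difference of the list. It ranged from 7.41 to 10.37 (median 9.97) in relapsed and from 6.15 to 10.03 (median 9.20) in naïve tumours, against 5.98 to 7.26 (median 6.53) in healthy dogs. It was 4.39-fold higher (log2 difference 2.13, SE 0.47, adjusted p = 0.000842), 18 DLBCL dogs were above all healthy dogs and 0 were below, and its 3 dimmer probesets had differences of 1.71 to 2.64. RSAD2 (viperin), its neighbour, also passed with 0.82 (adjusted p = 0.0232), at levels of 3.54 to 5.77 in DLBCL dogs and 3.37 to 3.90 in healthy dogs that lie close to background. Without healthy dog 7 its adjusted p was 0.0504.

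MX1, a dynamin-like GTPase that traps viral nucleoproteins, did not pass in spite of a large difference. Its values were 8.34 to 13.20 (median 12.64) in relapsed and 6.68 to 13.16 (median 12.02) in naïve tumours, against 9.10 to 10.89 (median 10.23) in healthy dogs. The log2 difference was 1.36 with a 95% interval of -0.08 to 2.79 (SE 0.70, adjusted p = 0.141). Here 14 DLBCL dogs were above every healthy dog and 3 below, and without DLBCL 15 the difference was 1.58 and passed (adjusted p = 0.0468). DLBCL 15 was the lowest tumour for MX1, so leaving it out could only raise the difference, and this pass is no separate support. MX2, the nuclear relative of MX1, had a difference of 0.28 (adjusted p = 0.72), and ISG20, an RNA exonuclease, one of 0.18 (adjusted p = 0.818). ISG20 was divided among the tumours, with 11 DLBCL dogs above every healthy dog and 9 below. TRIM21, the cytosolic antibody receptor, had the smallest difference of the list. It ranged from 9.40 to 9.88 (median 9.51) in relapsed and from 8.70 to 10.17 (median 9.56) in naïve tumours, against 9.19 to 9.76 (median 9.55) in healthy dogs, a difference of 0.09 (95% interval -0.21 to 0.38). SAMD9L, which restrains translation, had a difference of 0.50 (adjusted p = 0.111).

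The IFIT proteins bind foreign RNA ends, and of the 2 measured IFIT5 was higher by 0.59 (SE 0.13, adjusted p = 0.000841) at dim levels of 4.23 to 5.61 in DLBCL dogs and 3.93 to 4.86 in healthy dogs. IFIT2 had a difference of 0.68 (adjusted p = 0.107). PARP9 and DTX3L form a complex that modifies histones, and with PARP12 and PARP14 they made a group in which 1 of 4 passed. PARP14 was higher by 1.05 (SE 0.29, adjusted p = 0.00665) with 20 DLBCL dogs above all healthy dogs, whereas PARP9 had 0.48 (adjusted p = 0.159), DTX3L 0.34 (adjusted p = 0.147) and PARP12 0.24 (adjusted p = 0.221). For DTX3L the dimmer probeset passed with 0.62 (adjusted p = 0.016).

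Other genes named for their induction were higher in 4 of 7 cases. RTP4, a chaperone of receptors, ranged from 8.95 to 11.05 (median 10.19) in relapsed and from 6.73 to 11.03 (median 10.52) in naïve tumours, against 7.45 to 8.53 (median 7.98) in healthy dogs. It was 3.83-fold higher (log2 difference 1.94, SE 0.44, adjusted p = 0.00118), with 20 DLBCL dogs above every healthy dog and 2 below. IFI44, a cytoplasmic protein, ranged from 9.46 to 11.10 (median 10.76) in relapsed and from 7.33 to 11.54 (median 10.85) in naïve tumours, against 8.44 to 9.26 (median 8.89) in healthy dogs. Its difference was 1.5 (SE 0.41, adjusted p = 0.00511). XAF1, which promotes apoptosis, ranged from 10.00 to 12.05 (median 11.19) in relapsed and from 7.48 to 11.45 (median 10.78) in naïve tumours, against 8.53 to 9.67 (median 9.05) in healthy dogs. XAF1 was higher by 1.48 (SE 0.42, adjusted p = 0.00783). For both IFI44 and XAF1, 19 DLBCL dogs were above every healthy dog and 2 below.

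IFI35 was higher by 0.48 (adjusted p = 0.0196). IFI44L, at 9.83 to 13.99 in DLBCL dogs and 12.49 to 13.02 in healthy dogs, was among the brightest members and had a difference of 0.59 that did not pass (adjusted p = 0.244). Both of its dimmer probesets passed with 1.61 and 1.71. EPSTI1 had a difference of 0.25 (adjusted p = 0.468), while 1 of its 2 dimmer probesets passed with 0.68 (adjusted p = 0.0304). IFI6, a membrane protein that protects against apoptosis, had a negative value of -0.61 (adjusted p = 0.21), with 9 DLBCL dogs below and 2 above all healthy dogs.

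**Figure D3:**
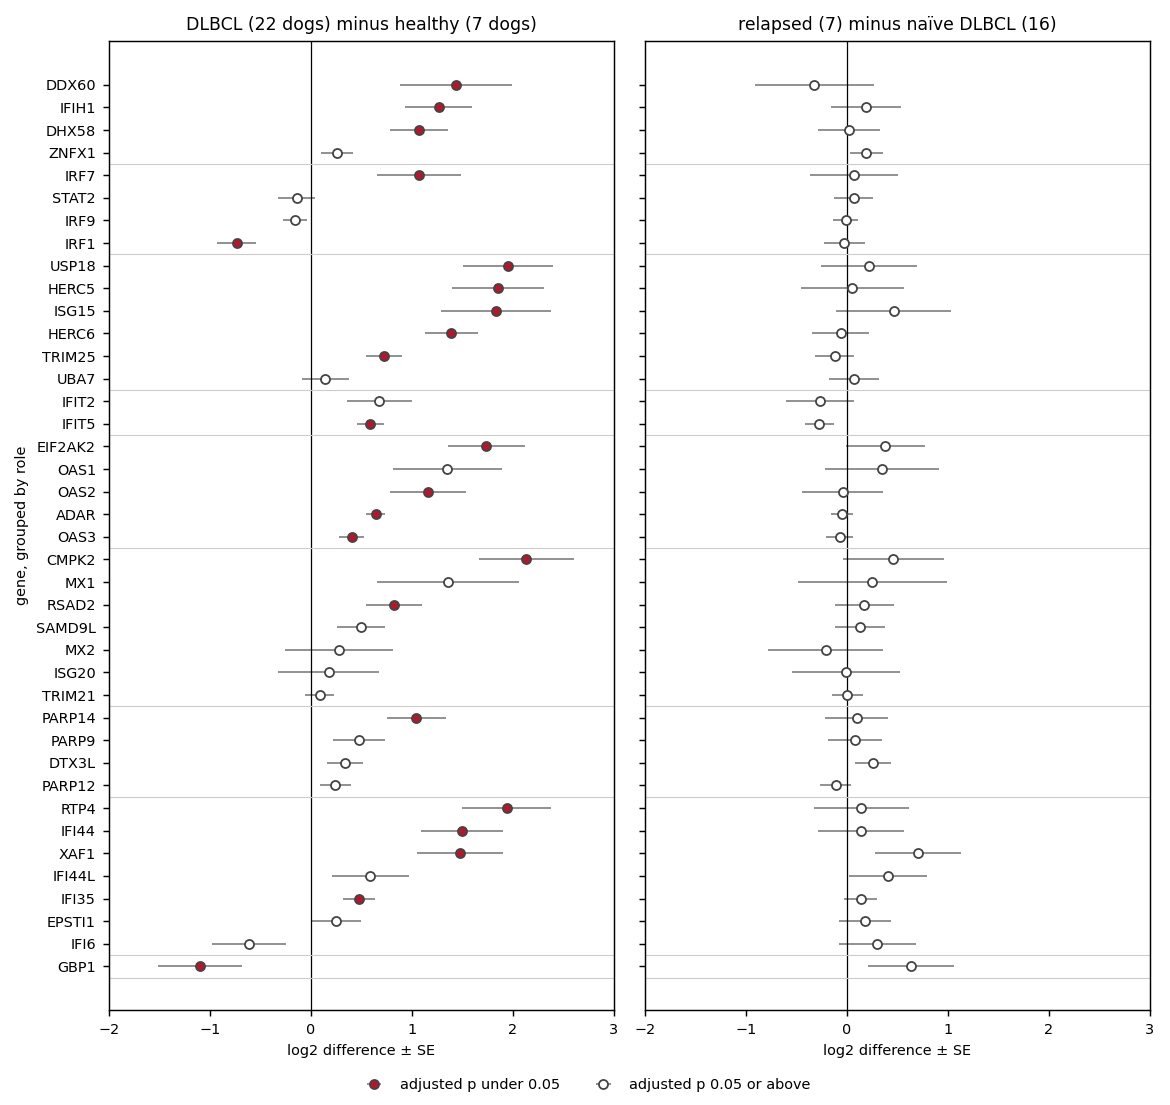
Log2 difference with its SE for each of the 40 genes, on the left for DLBCL minus healthy dogs and on the right for relapsed minus naïve DLBCL; filled points had an adjusted p under 0.05. On the left 23 points are filled, 21 of them positive, and on the right none are.

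The transcription factors of the response did not move as a group. IRF7, which amplifies type I interferon production, was 2.1-fold higher at 8.07 to 10.31 (median 9.98) in relapsed and 6.83 to 11.01 (median 9.91) in naïve tumours, against 8.16 to 8.83 (median 8.38) in healthy dogs. Of the DLBCL dogs 17 were above and 4 below all healthy dogs. The log2 difference of 1.07 (SE 0.41, adjusted p = 0.0462) did not pass without DLBCL 3, without DLBCL 19 or without any 1 of the 7 healthy dogs, with adjusted p of 0.0535 to 0.0867. STAT2 ranged from 8.59 to 9.96 (median 9.47) in relapsed and from 8.24 to 10.05 (median 9.38) in naïve tumours, against 9.05 to 9.78 (median 9.52) in healthy dogs. IRF9 ranged from 11.45 to 12.13 (median 11.87) in relapsed and from 11.12 to 12.33 (median 11.85) in naïve tumours, against 11.90 to 12.25 (median 11.95) in healthy dogs. For IRF9, 13 DLBCL dogs lay below all healthy dogs and 2 above. The 95% intervals of the differences were -0.51 to 0.23 for STAT2 and -0.40 to 0.08 for IRF9, so that a change of 2-fold lay outside both. These are values of the brightest probesets. The dimmer probesets of STAT2 all had positive differences, of 0.05 to 0.33, and did not pass.

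IRF1, which interferon gamma induces, was lower in DLBCL. Relapsed tumours had 9.11 to 9.89 (median 9.44) and naïve tumours 8.62 to 10.86 (median 9.49), against 9.91 to 10.36 (median 10.23) in healthy dogs. Of the DLBCL dogs 20 were below all healthy dogs, and the 2 above were DLBCL 21 at 10.86 and DLBCL 5 at 10.46. The log2 difference was -0.73 (SE 0.19, adjusted p = 0.00416), and 1 of its 2 dimmer probesets also passed (-0.50, adjusted p = 0.048).

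GBP1, a guanylate-binding protein of the interferon gamma response, moved the same way. It ranged from 8.08 to 10.74 (median 10.09) in relapsed and from 7.49 to 11.49 (median 9.04) in naïve tumours, against 10.34 to 10.83 (median 10.49) in healthy dogs. Below all healthy dogs were 16 DLBCL dogs, and above them were DLBCL 21 and DLBCL 5. The difference of -1.10 (SE 0.41, adjusted p = 0.0406) did not pass without any 1 of the 7 healthy dogs (adjusted p of 0.0545 to 0.0745) or at the mean of its 3 probesets (-0.67, adjusted p = 0.117). T-cell and NK-cell markers, from the cells that make interferon gamma, were lower in DLBCL in 7 of 9 and 3 of 7 cases, and their part in the values of IRF1 and GBP1 was not tested.

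No gene of the list had all 22 DLBCL dogs above, or all below, the 7 healthy dogs, as 0.549% and 1.18% of all genes had. In 28 of the 40 genes, 15 or more DLBCL dogs were above every healthy dog, as in 2344 of the 15115 genes on the array. Of the 78 probesets 40 were higher and 3 lower, where 19% of all probesets were higher and 13.6% were lower. Of the 38 dimmer probesets 32 had the sign of the brightest one of their gene. Members of the OAS, MX, HERC, GBP and IFIT families share sequence, and hybridisation of a probeset to the RNA of a relative was not tested.

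The spread across tumours was wide. The median SD of the 40 genes was 0.82 over the 22 DLBCL dogs and 0.23 over the 7 healthy dogs, while for all genes the medians were 0.27 in DLBCL dogs and 0.19 in healthy dogs. For 39 of the 40 genes the SD was larger in DLBCL, as for 76.9% of all genes, and 15 had an SD over 1, as had 4.3% of all genes. MX1 varied most, with an SD of 1.88 in DLBCL dogs and 0.67 in healthy dogs, which placed it at the 99.7th percentile of all genes in DLBCL. ISG15 had an SD of 1.47 in DLBCL dogs and 0.41 in healthy dogs. ADAR with 0.21 in DLBCL dogs stood at the 34.5th percentile. Without DLBCL 15 and DLBCL 22 the median SD of the list was 0.60.

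Both of these naïve tumours were low across nearly the whole list. The mean of the 40 genes was 7.95 in DLBCL 15 and 8.33 in DLBCL 22, followed by 9.14 in DLBCL 24 and 9.26 in DLBCL 5. It was 8.92 to 9.36 in the healthy dogs, so that DLBCL 15 and 22 were the only tumours below all of these. DLBCL 15 had the lowest value of the 23 tumours in 26 genes and DLBCL 22 in 9, and in 25 genes they were the lowest pair. Of all genes, 3.82% were lowest in DLBCL 15 and 4.41% in DLBCL 22. Below every healthy dog lay 31 genes in DLBCL 15 and 29 in DLBCL 22, against 23.4% and 21.9% of all genes in these tumours.

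How far they stood from the other tumours differed by gene. ISG15 was 7.48 in DLBCL 15 and 8.64 in DLBCL 22, while the third lowest tumour had 9.15. MX1 was 6.68 in DLBCL 15 and 7.64 in DLBCL 22, and the next tumour had 8.34. RTP4 was 6.73 in DLBCL 15 and 6.82 in DLBCL 22, and the next tumour had 8.95. All of these values of DLBCL 15 and 22 are below the lowest healthy dog, and so are those of OAS1, with 6.24 in DLBCL 15 and 7.30 in DLBCL 22. Exceptions were GBP1, with 10.54 in DLBCL 22 the fourth highest tumour value, and IFIT5, in which DLBCL 15 ranked 13 of 23 from the highest. In RSAD2, DLBCL 15 ranked 17 and DLBCL 22 ranked 14, with 3.92 in DLBCL 15 and 4.05 in DLBCL 22 that lie above the highest healthy dog, and in ADAR DLBCL 22 ranked 15. B-cell markers were at 10.93 in DLBCL 15 and 10.83 in DLBCL 22, within the range of the other tumours, and RIN was 10 in DLBCL 15 and 8.9 in DLBCL 22. Macrophage markers were at 8.91 in DLBCL 15, the lowest of all tumours, and at 9.60 in DLBCL 22. Over all probesets DLBCL 15 correlated with the other tumours at a median of 0.977, where tumours had medians of 0.951 to 0.982. The part of these measures in the low values was not tested.

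DLBCL 19 and DLBCL 3 were at the other end. The mean of the list was 10.63 in DLBCL 19, a naïve tumour, and 10.57 in DLBCL 3, a relapsed one, the highest values of all arrays, with DLBCL 25 (10.57) and DLBCL 13 (10.49) next. DLBCL 19 was above the tumour median in 38 genes and below it in 0, with a median deviation of 0.41, and it was among the top 5 tumours in 26 genes. Of all genes, 45.9% were above the tumour median in DLBCL 19 and 48.9% below it. DLBCL 3 was above the median in 35 genes, as in 43.9% of all genes. Its median deviation of 0.30 was smaller than those of DLBCL 25 (0.40), DLBCL 1 (0.34) and DLBCL 13 (0.31). DLBCL 3 was the highest tumour in 8 genes of the list, more than any other, and in 2.2% of all genes. The 8 included CMPK2 at 10.37, EIF2AK2 at 10.996, OAS2 at 13.44, IFIH1 at 11.48 and HERC5 at 12.49. The high end was thus less far from the median than the low end, where DLBCL 15 deviated by -1.91 and DLBCL 22 by -1.76. RIN was 9.8 in DLBCL 19 and 9.3 in DLBCL 3.

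**Figure D4:**
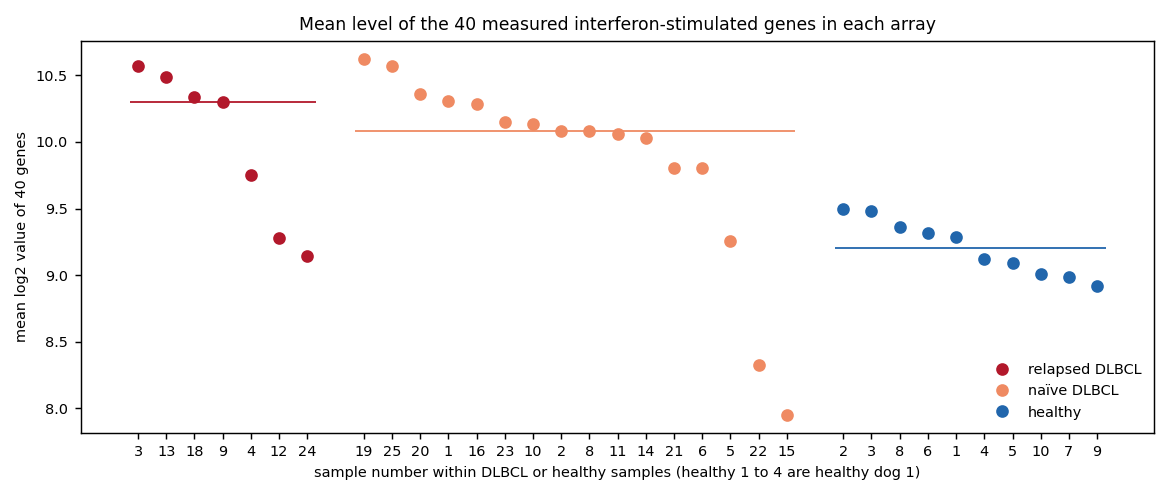
Mean log2 value of the 40 genes in each of the 33 arrays, by group, with a line at the median of the group's arrays. DLBCL 15 (7.95) and DLBCL 22 (8.33) lie below all healthy arrays, and DLBCL 19 (10.63) and DLBCL 3 (10.57) are the highest.

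By roles, DLBCL 3 and DLBCL 19 stood out in much the same places. Both ranked 1 to 3 of the tumours in the sensors, the ISG15 genes, the OAS and related enzymes and the other antiviral effectors. In the PARP9 group DLBCL 3 ranked 10 and DLBCL 19 ranked 9. They lay further apart in the transcription factors (8 and 2), the IFIT pair (7 and 2) and the genes named for their induction (6 and 1). DLBCL 3 was the highest tumour in the mean of the OAS and related enzymes (10.25, tumour median 9.58) and of the other antiviral effectors (10.65, median 9.72), but eighth in the transcription factors. DLBCL 19 was the highest in the genes named for their induction (11.79, median 11.39) and the second in the sensors (10.51, median 9.80). For GBP1 DLBCL 3 ranked 13 and DLBCL 19 ranked 12 of 23. DLBCL 15 ranked last in the means of all roles but the IFIT pair, where it was 21 of 23.

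Leaving out these tumours changed how many genes passed between DLBCL and healthy dogs. Without DLBCL 15 there were 27 higher genes, with DTX3L, IFI44L, MX1, OAS1, PARP9 and SAMD9L gained and 0 lost. DLBCL 15 was the lowest tumour in each gained gene, so leaving it out raised their DLBCL means, and these passes are no separate support. Without DLBCL 22 there were 22 higher genes of the list, and without DLBCL 15 and 22 there were 28. Both tumours were low across nearly the whole list, so these added passes are no separate support either. Of all 43035 probesets, 7898 were higher without DLBCL 15, 8139 without DLBCL 22 and 7810 without both, against 8178 with all dogs. Without DLBCL 3 or without DLBCL 19 there were 19 higher genes of the list, with DDX60 and IRF7 lost each time. Without DLBCL 15, 3 and 19 together there were 26. Of all probesets, 8099 were higher without DLBCL 3, 8008 without DLBCL 19 and 7604 without DLBCL 15, 3 and 19. Without DLBCL 5 there were again 21 higher genes of the list, with OAS1 gained and DDX60 lost, and 8637 of all probesets were higher. With a healthy dog left out, 18 to 20 genes of the list and 6985 to 7678 of all probesets were higher.

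The genes varied together across tumours. Over the 22 DLBCL dogs 38 of 39 genes had a positive correlation with ISG15, with a median Pearson r of 0.79 and a median Spearman rho of 0.74, where the median r of all genes with ISG15 was -0.00. An r over 0.7 was reached by 27 genes, against 0.39% of all genes. Closest were IFI44L (r = 0.97, rho = 0.91), USP18 (r = 0.96, rho = 0.95) and IFI44 (r = 0.95, rho = 0.78), each with an unadjusted permutation p of 1e-05 for r, the smallest that 100000 permutations can give, among 39 relations computed. The p for rho was 1e-05 for IFI44L and USP18 and 5e-05 for IFI44.

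DLBCL 15 and DLBCL 22 were the dogs farthest from the median of ISG15. Without them r remained 0.95 for IFI44L and 0.95 for USP18, the median was 0.67 and 18 genes had an r over 0.7. The relation of DDX60 with ISG15 (r = 0.71, rho = 0.58, permutation p = 0.0011 and 0.005) fell to an r of 0.25 without them. That of IFIT2 (r = 0.50, rho = 0.21, permutation p = 0.019 and 0.35) fell to 0.00. UBA7 (r = 0.58, rho = 0.43, permutation p = 0.01 and 0.048) had an r of 0.085 without them, and PARP12 (r = 0.52, rho = 0.49, permutation p = 0.014 and 0.022) had 0.15. Leaving out the dogs farthest in ISG15 narrows its range, so these falls do not show what a relation rested on. Without DLBCL 15, 3 and 19 r was 0.51 for DDX60, 0.44 for PARP12, 0.24 for IFIT2 and 0.21 for UBA7. IRF1 (r = 0.12, rho = 0.16, permutation p = 0.6 and 0.47) and GBP1 (r = -0.02, rho = -0.03, permutation p = 0.92 and 0.9) showed no such relation. Over the 20 dogs without DLBCL 15 and 22 the r of IRF1 was -0.35 and that of GBP1 -0.31. The dogs share their arrays' normalisation and differ in cell content, and its part in these correlations was not tested.

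**Figure D5:**
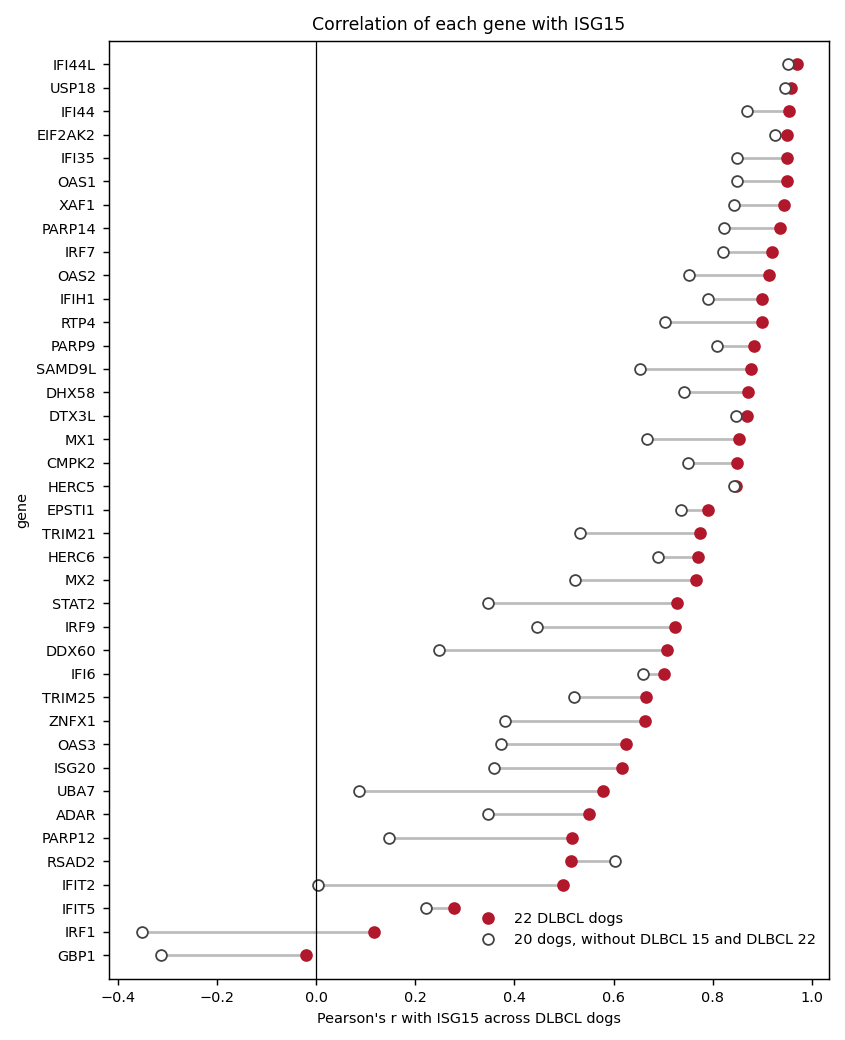
Pearson r of each gene with ISG15 over the 22 DLBCL dogs and over the 20 dogs without DLBCL 15 and DLBCL 22. Most genes stay above 0.5 in both, while DDX60, PARP12, UBA7 and IFIT2 drop to 0.25, 0.15, 0.085 and 0.00, and IRF1 and GBP1 are near 0 or negative.

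Several of the genes are near neighbours on the dog genome (assembly UU_Cfam_GSD_1.0). OAS1 with OAS2 and DTX3L with PARP14 have 1 protein-coding gene between them, and the other pairs have none. The 9 such pairs had a median r of 0.79 over the DLBCL dogs, against 0.65 over all 780 pairs of the list. Without DLBCL 15 and 22 the medians were 0.77 for the neighbours and 0.45 for all pairs. The pairs IFI44 with IFI44L (0.96), OAS1 with OAS2 (0.95), MX2 with MX1 (0.94) and PARP9 with DTX3L (0.93) were the closest. CMPK2 with RSAD2 had 0.65, where RSAD2 is dim. Pairs share dogs and genes, and so they are given without a test.

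Relapsed tumours were compared with naïve tumours in a model of 3 group means, in which DLBCL 11 and 12 stayed in their own groups. The comparison asks whether the genes differ between these groups, and relapse and previous chemotherapy cannot be told apart in it. None of the 40 genes passed (limma, smallest adjusted p = 0.90), 0 had an unadjusted p under 0.05, and 0% of all genes passed the adjusted threshold and 5.51% the unadjusted one. The median difference was 0.09. The largest were 0.70 for XAF1 (SE 0.43, 95% interval -0.17 to 1.58, adjusted p = 0.903), 0.64 for GBP1 (SE 0.43, interval -0.23 to 1.51, adjusted p = 0.907) and 0.47 for ISG15 (SE 0.57, interval -0.70 to 1.63, adjusted p = 0.956). For GBP1 the medians were 10.09 in relapsed and 9.04 in naïve tumours, and the ranges overlapped almost fully. The interval of MX1 (-1.26 to 1.76) holds 2-fold differences in both directions, and that of DDX60 (-1.53 to 0.88) holds a 2-fold lower level in relapsed tumours. For ISG15 the difference turned to -0.03 without DLBCL 15 and 22, both naïve. They were the lowest pair of tumours for ISG15, so leaving them out could only lower the difference.

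Set against the same 7 healthy dogs, 14 genes were higher and 1 was lower in relapsed tumours, where 10.8% and 8.96% of all genes were, and 19 were higher and 2 lower in naïve tumours, where 19.9% and 15.1% were. The median differences were 0.62 in relapsed and 0.71 in naïve tumours. CMPK2 had a log2 difference of 2.43 in relapsed and 1.97 in naïve tumours, and ISG15 one of 2.15 in relapsed and 1.68 in naïve tumours. GBP1 had -0.71 in relapsed (adjusted p = 0.36) and -1.34 in naïve tumours (adjusted p = 0.015), and the gene that was lower in relapsed tumours was IRF1. These comparisons share their healthy dogs, and the relapsed group holds fewer tumours.

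One dog was sampled both naïve (DLBCL 11) and at relapse (DLBCL 12), 152 days after its last treatment. In it 36 of 40 genes were lower at relapse, as were 48.1% of all genes, with a median difference of -0.76. ISG15 was 10.89 in the relapsed and 12.07 in the naïve sample, and CMPK2 was 7.41 in the relapsed and 9.16 in the naïve sample. Lower by more than 1 on the log2 scale were 15 genes, against 0.668% of all genes. The samples also differed in cell markers. Those of T cells averaged 10.30 in the relapsed and 9.53 in the naïve sample, those of stroma and endothelium 10.47 in the relapsed and 9.64 in the naïve sample, those of neutrophils 8.29 in the relapsed and 7.15 in the naïve sample, and those of B cells 11.02 in the relapsed and 11.18 in the naïve sample. Their part in the lower values was not tested. This is 1 pair of biopsies, so the difference has no replicate. Among the relapsed tumours DLBCL 12 (mean of the list 9.28) and DLBCL 24 (9.14) were the lowest, and the other 5 had means of 9.75 to 10.57.

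Healthy dog 1 gave RNA of a RIN of 9.15, nearer to that of the tumours than the 5.8 to 7.7 of the other healthy dogs. Its mean of the list was 9.35, within the range of these dogs. The DLBCL mean was above it in 34 of the 40 genes, as in 61.8% of all genes, with a median difference of 0.57. Healthy dog 1 was the highest healthy dog in 14 of the 40 genes, as in 18.6% of all genes. The 6 genes with a difference over 1.5 times smaller under RIN were all higher in it than in the mean of the other dogs. HERC5 had 10.11 against 8.82, HERC6 10.66 against 10.08, IRF7 8.83 against 8.41, OAS2 12.14 against 10.94, DDX60 8.22 against 6.78 and GBP1 10.54 against 10.52. Against each of the other healthy dogs the DLBCL mean was above in 32 to 35 genes, as in 52.1% to 61.9% of all genes. This sets the differences beside 1 dog of high RIN and is no test.

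Other genes of the interferon system were read from 5 lists of upstream and induced genes, of which 57 of 82 were measured. In DLBCL dogs against healthy dogs, 15 were higher and 10 were lower, or 26.3% and 17.5% of the 57, near the 19.9% and 14.9% of all genes given above, and their median difference was -0.00. Among ligands IFNG, which encodes interferon gamma, was lower (5.27 to 10.62, median 5.93, in DLBCL dogs against 6.27 to 8.70, median 7.75, in healthy dogs, log2 difference -1.42, adjusted p = 0.0259). IFNL1 was higher by 0.31 (adjusted p = 0.00605), and IFNB1, with a mean of 3.47, lay at background. Of 9 receptors and JAK-STAT genes 0 were higher and 3 lower, STAT3 by -0.46, JAK1 by -0.25 and IL10RB by -0.18.

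Of 10 genes that sense nucleic acid or induce interferon, 4 were higher, among them TLR9, an endosomal DNA receptor of B cells, by 0.89 (adjusted p = 0.000227) and its adaptor MYD88 by 0.85, and IRF3 was lower by -0.27. Of 6 negative regulators 4 were higher, the phosphatases PTPN6 (0.64), PTPN11 (0.60) and PTPN2 (0.26) and SOCS1 (0.23), and PIAS1 was lower (-0.53). Of 28 other induced genes 6 were higher, such as PLSCR1 (1.03) and PML (0.75), and 4 lower. IDO1, which degrades tryptophan and responds to interferon gamma, had the largest fall of these lists. It was at 6.80 to 12.58 (median 9.33) in DLBCL dogs against 11.56 to 13.37 (median 13.00) in healthy dogs, a difference of -3.45 (SE 0.59, adjusted p = 5.25e-05). GBP5, a relative of GBP1, was lower by -1.39 (adjusted p = 0.00632), and CXCL10, a chemokine for T cells, had -1.07 (adjusted p = 0.17). With RIN as a covariate none of the 57 genes passed in either direction.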

How the data were processed

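RNA of 33 lymph node biopsies was amplified with the NuGEN Ovation system and measured on the Affymetrix Canine Genome 2.0 array. The authors normalised the arrays by RMA in Affymetrix Expression Console and deposited log2 values, 1 per probeset and array. The versions of these programs are not stated in the sources read here. RMA hides a change of total RNA per cell and compresses changes of dim probesets. The values were used as deposited, and 0 sample columns stayed unused.

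Groups came from the sample labels. Probesets were compared with limma 3.58.1 (lmFit, eBayes) in R 4.3.3, with Benjamini-Hochberg adjustment over 43035 probesets and a call at an adjusted p under 0.05. Correlations had 100000 permutations of the dogs, two-sided. Python 3.11.15, numpy 2.4.6, pandas 2.3.3, scipy 1.17.1 and matplotlib 3.10.9 were used. Gene symbols came from the platform annotation (29264 probesets with 1 symbol, 439 with several, 13332 unnamed), and neighbouring genes from RefSeq. The models were tested on simulated data.

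RNA was extracted in 2 batches that are not assigned to samples here, and the number of arrays limits the precision. The members, lists and tests were chosen with earlier results of these data known. Full values are given for the 10 members of largest difference between DLBCL and healthy dogs, those that passed with the opposite sign, the 3 of smallest difference, the 3 of largest difference between relapsed and naïve DLBCL, and ISG15, MX1, IRF7, IRF9, STAT2, IRF1 and GBP1. For other lists up to 4 changed genes and CXCL10 could be named, and 1 item is not reported here. Alternatives were other normalizations, a filter on dim probesets (25th percentile of the mean), the mean of a gene's probesets, the methods' ANOVA, arrays as samples, blocks, RIN as a covariate, and samples left out. Leaving out DLBCL 22, DLBCL 15 and 22, or DLBCL 5 was chosen after the values were seen.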

Additional observations from a re-analysis of the deposited data

Results flagged for a closer look

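OAS2 in healthy dog 1 had a value of 12.14, while the nearest of the other 6 healthy dogs had 11.26. The gap was 0.629 of the whole range of the 7 healthy dogs. Without healthy dog 1, OAS2 was higher in DLBCL by 1.33 (limma, adjusted p = 0.0122). In the methods' ANOVA, where the 4 arrays of healthy dog 1 count separately, OAS2 had 0.82 and missed the threshold (adjusted p = 0.0544). Among the 80 groups of values examined in this way healthy dog 1 in OAS2 was the 1 sample that stood apart. Chance flags about 1 in 20 such groups, so 1 flag among 80 groups is no more than chance gives.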

How the results depend on the processing

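With RIN as a covariate the counts of higher and of lower genes were 0 in DLBCL, in naïve and in relapsed tumours against healthy dogs, and 0 among the pathway genes. That fit turned the signs of 5 small differences, with IRF9 at 0.022, STAT2 at 0.16, UBA7 at -0.087, MX2 at -0.041 and TRIM21 at -0.079. STAT2 was 0.13 at the mean of its probesets. Between DLBCL and healthy dogs the number of higher genes was 20 to 24 under the other normalizations, the filter, the mean of probesets, the methods' ANOVA, arrays as separate samples and the dog as a random block. Lower genes numbered 1 at the mean of probesets, without DLBCL 15, 3 and 19 together, and without each healthy dog in turn. In naïve tumours 29 genes were higher without DLBCL 15 and 22, where 7925 of all probesets were, against 8275 with all dogs. Both tumours were low across nearly the whole list, so leaving them out raised the naïve means, and the added passes are no separate support. Between relapsed and naïve tumours 0 genes passed under all alternatives run. The ISG15 difference was -0.030 without DLBCL 15 and 22, the lowest naïve tumours for ISG15, whose removal could only lower it. With the sample numbers as a replicate block 26 genes were higher and 3 lower, with STAT2 at 0.092 and ISG20 at -0.012. The 9 numbers shared by tumours and healthy arrays only name samples. Deviations of the same number correlated at -0.0987 to 0.119, and 1 of 9 correlated best with its own number. Dim genes such as RSAD2 and IFIT5 are limited by background.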

Other observations

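The genes outside the list that were most like it were those of highest Pearson r with the mean of the 40 genes over the 22 DLBCL dogs. They were TDRD7 (0.95), LOC488947 (0.94), RNF213 (0.90), LGALS9 (0.87), IFGGC1 (0.86), KIAA1549 (0.84), UBE2L6 (0.82), CLU (0.81), TNFSF10 (0.81) and INPP5J (0.80). UBE2L6 is the conjugating enzyme of ISG15, RNF213 a large ubiquitin ligase, LGALS9 a galectin and TNFSF10 the death ligand TRAIL. They were chosen for this likeness, so no test is given, and their low values in DLBCL 15 and 22 partly follow from that choice. RNF213 was at 8.16 in DLBCL 15 and 8.14 in DLBCL 22, against a tumour median of 9.74, and at 9.89 in DLBCL 3 and 10.23 in DLBCL 19. LGALS9 was at 8.70 in DLBCL 15 and 9.57 in DLBCL 22, against a tumour median of 11.04, and at 12.02 in DLBCL 19. LOC488947 was at 5.61 in DLBCL 15 and 6.08 in DLBCL 22, against a tumour median of 9.99. Between DLBCL and healthy dogs RNF213 had a difference of 1.003 (limma, adjusted p = 0.0027), LGALS9 of 1.04 (0.0034) and LOC488947 of 1.57 (0.027). KIAA1549 had 0.39 (adjusted p = 0.028) and UBE2L6 0.41 (0.040). The others did not pass, with TDRD7 at 0.56 (adjusted p = 0.13), IFGGC1 at 0.33 (0.59) and INPP5J at 0.04 (0.66). CLU at -0.34 (adjusted p = 0.11) and TNFSF10 at -0.16 (0.55) were negative and did not pass either.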
